A study of Mus musculus with 4 samples.

Results

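A set of 7 long noncoding RNAs with well-described nuclear or snoRNA-host roles, *Malat1*, *Neat1*, *Tug1*, *Firre*, *Gas5*, *Snhg1* and *Snhg3*, were followed in mouse embryonic stem (ES) cells. They were chosen by gene symbol, and all 7 were found among the 24054 genes of the deposited count tables. The 4 libraries were 1 wild-type culture of the ES cell line wt26 at passage 46 and 3 Morc3 rescue clones, T131-3C, T131-3D and T131-3M, called 3C, 3D and 3M here. All cells were grown without feeders on gelatin in serum with LIF. The rescue clones carried the knock-out of the chromatin ATPase gene *Morc3*, and a wild-type *Morc3* construct had been put back by PiggyBac transfection with puromycin selection. Each was a single clone, and all 3 came from the same ko line, which was itself a single clone of wt26. Morc3 ko libraries were not analysed here, so the comparison asks only whether rescued cells differed from the wild-type culture. There was 1 wild-type library, so the spread in every test came from the 3 clones and wild type was assumed to vary as they did.

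Total RNA was depleted of ribosomal RNA, which also keeps RNAs that lack a poly(A) tail. It was sequenced from both fragment ends with a directional kit. Between 13620914 and 18789457 read pairs per library lay on genes in the column that matches the kit's orientation, the highest number being in wild type. Unmapped pairs were 14.5% in wild type and 21.0% to 23.0% in the clones, and the part of this gap in the results was not tested. CPM below are read pairs on a gene scaled to the size of the library after TMM scaling, edgeR's correction for library composition. *Morc3* itself had 3065 counts in the wild-type library and 8830, 7225 and 9437 in 3C, 3D and 3M. The 8 ES cell marker genes summed to 4763 CPM in wild type and 4913 to 5374 CPM in the clones, while the sums over 6 fibroblast markers (26.2 to 50.7 CPM over the 4 libraries, mostly *Thy1*, with *Col3a1* at 0 throughout), 4 endoderm markers (2.06 to 4.60 CPM) and 5 mesoderm and ectoderm markers (4.60 to 6.46 CPM) were far lower. Single ES cell markers differed from wild type, with 4 of the 8 fitted above it and 4 below. *Nanog* had 300 CPM in wild type and 468, 358 and 481 CPM in 3C, 3D and 3M.

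Long noncoding RNAs of this kind fall into broad roles. *Malat1* and *Neat1* lie next to each other and mark separate nuclear bodies: the Malat1 RNA collects in nuclear speckles, which store splicing factors, and the Neat1 RNA is the scaffold of paraspeckles. Tug1 and Firre RNAs are spliced, and Firre RNA stays near its own locus on the X chromosome, where it is known to interact with the nuclear matrix protein Hnrnpu and with CTCF. *Gas5*, *Snhg1* and *Snhg3* are genes whose introns carry small nucleolar RNAs (snoRNAs), the guides that direct modification of ribosomal RNA. Their spliced RNAs are poor templates for protein, and those that open with a run of pyrimidines, as many mRNAs of the translation machinery do, are known to be degraded while they are translated, by nonsense-mediated decay.

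In the GRCm38.p6 assembly, which is that of the mm10 build used by the authors, *Malat1* lies on chromosome 19 from 5795690 to 5802672 and *Neat1* on the same chromosome from 5824708 to 5845480. *Snhg1* is also on chromosome 19, from 8723487 to 8726326. *Tug1* spans 3639785 to 3648814 of chromosome 11, *Firre* 50563120 to 50635321 of chromosome X, *Gas5* 161034601 to 161038539 of chromosome 1, and *Snhg3* 132351933 to 132353686 of chromosome 4. As a whole, the genes of these chromosomes lay close to wild type, with a median log2 difference between -0.034 and 0.034 in every clone.

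The start regions of the snoRNA hosts are shown beside those of *Malat1*, *Tug1* and *Firre*, because the letters around the start differ among these 6 genes, and *Neat1* is not shown. Each line runs from 40 bases before the RefSeq start to 19 bases after it, on the strand of the gene, with the start base and any TATA in capitals.
Gas5, first start (chr1:161034561-161034620, plus strand): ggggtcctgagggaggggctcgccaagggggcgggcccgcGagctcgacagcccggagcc
Gas5, second start (chr1:161035126-161035185, plus strand): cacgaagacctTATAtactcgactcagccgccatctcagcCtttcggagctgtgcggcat
Snhg1 (chr19:8723447-8723506, plus strand): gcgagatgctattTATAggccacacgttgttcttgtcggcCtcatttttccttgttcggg
Snhg3 (chr4:132353667-132353726, minus strand): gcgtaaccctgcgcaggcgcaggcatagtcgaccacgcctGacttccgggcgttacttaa
Malat1 (chr19:5802653-5802712, minus strand): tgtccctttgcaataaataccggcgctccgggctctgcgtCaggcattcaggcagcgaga
Tug1 (chr11:3648795-3648854, minus strand): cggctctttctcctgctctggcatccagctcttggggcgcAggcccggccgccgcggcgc
Firre (chrX:50635302-50635361, minus strand): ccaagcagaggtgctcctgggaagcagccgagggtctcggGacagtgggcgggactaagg

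The letters TATA, searched on the gene's strand between 40 and 16 bases before the start, were found 29 bases before the second start of *Gas5* and 27 bases before that of *Snhg1*. Of all 32851 promoters in the RefSeq table, 5.91% hold them there. Runs of at least 5 pyrimidines (C or T) were sought that begin within 5 bases of the start on either side. They were present at the second start of *Gas5* (6 bases), at *Snhg1* (9 bases) and at *Snhg3* (5 bases), against 26.4% of all promoters. The run of *Gas5* covered the start base, whereas those of *Snhg1* and *Snhg3* began after it. *Malat1*, *Tug1* and *Firre* had none. These matches describe the letters of the windows and say nothing about which start was used in these cells.

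*Malat1* had the highest level of the 7. It had 64666 counts in the wild-type library and 47088, 59505 and 54732 in 3C, 3D and 3M, or 3391, 3493, 4089 and 3533 CPM. All 3 clones were above wild type, 3C and 3M by 0.04 and 0.06 on the log2 scale and 3D by 0.27. The clone mean was 3705 ± 333 CPM (SD, n = 3), and the fitted log2 fold change of 0.13 (standard error, SE, 0.10; Benjamini-Hochberg adjusted p = 0.69 by the quasi-likelihood test of edgeR, as for every p given) was within the spread between clones. Its 95% interval ran from 0.92-fold to 1.30-fold. Without 3D, the clone farthest from wild type, the log2 fold change was 0.05. *Malat1* alone held 0.344% of all gene counts in wild type and 0.346% to 0.406% in the clones. The ribosomal RNA gene *Rn45s* still held 15.4% of these gene counts in wild type and 14.7% to 16.0% in the clones. Of the counts of the 7 genes together, *Malat1* held between 84.3% and 85.5%.

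The Malat1 RNA is cut at its 3′ end to release a small tRNA-like RNA, mascRNA, and the long RNA then ends in a genomically encoded A-rich tract in place of a poly(A) tail. The 60 bases before the cut are shown for this reason, with the run of 12 A in capitals.
Malat1, last bases before mascRNA (chr19:5795982-5796041, minus strand): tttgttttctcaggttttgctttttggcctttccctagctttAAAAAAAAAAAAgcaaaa
The mascRNA gene, 58 bases long, is not among the genes of the tables.

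*Neat1* was counted far less often than its neighbour. There were 1052 counts in the wild-type library and 805, 1033 and 1004 in the clones, or 55.2, 59.7, 71.0 and 64.8 CPM. Again all 3 clones were above wild type, with differences of 0.11, 0.36 and 0.23. The clone mean of 65.2 ± 5.65 CPM (SD, n = 3) gave a log2 fold change of 0.24 (SE 0.12, unadjusted p = 0.090, adjusted p = 0.55 in edgeR's quasi-likelihood test), the largest fitted value above wild type among the 7, and did not pass. Its interval was 0.96-fold to 1.45-fold. Without 3C the change was 0.30 (unadjusted p = 0.035, adjusted p = 0.45) and without 3D it was 0.17. The ratio of Malat1 to Neat1 counts, which needs no scaling between libraries, was 61.5 in the wild-type library and 58.5, 57.6 and 54.5 in 3C, 3D and 3M.

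*Tug1* had 2099 counts in the wild-type library and 1445, 1686 and 1916 in the clones, or 110, 107, 116 and 124 CPM. Wild type lay between 3C and 3D, so the groups overlapped. The clone mean was 116 ± 8.25 CPM (SD, n = 3), with a log2 fold change of 0.07 (SE 0.10, adjusted p = 0.84).

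*Firre* was the single member whose fitted value lay below wild type, and it varied most between clones. Its count was 1793 in the wild-type library and 872, 1373 and 1244 in 3C, 3D and 3M, or 94.0, 64.7, 94.4 and 80.3 CPM. Clone 3D had the wild-type level, while 3C was 0.54 and 3M 0.23 below it on the log2 scale. The clone mean was 79.8 ± 14.8 CPM (SD, n = 3), and the log2 fold change of -0.24 (SE 0.19, adjusted p = 0.71) had an interval from 0.61-fold to 1.19-fold. Clones 3C and 3D decided the size of this value. Without 3D, the clone at the wild-type level, the log2 fold change was -0.37. Without 3C it was -0.11 and without 3M -0.24. Within libraries, Firre counts were 85.4% of Tug1 counts in wild type and 60.3%, 81.4% and 64.9% in 3C, 3D and 3M.

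The highest clone exceeded the lowest 1.46-fold for *Firre* (95% interval 1.34 to 1.59, for counting error only). This ratio was larger than that of 90.7% of the 9462 tested genes with a mean of at least 100 counts, whose median was 1.13. Its coefficient of variation between clones was 18.6%, against 2.93% from counting alone. *Firre* was named for its internal repeats, and these bear on how its reads can be placed: 824 of the 5506 windows of 50 bases in its RefSeq-matched GENCODE transcript occur more than once in that transcript, whereas none occurs in another gene. The longest exact repeat, of 123 bases, lies at positions 1286 to 1408 and again at 3745 to 3867 of the transcript. A stretch of 20 bases that occurs 10 times in the transcript is in capitals.
Firre repeat: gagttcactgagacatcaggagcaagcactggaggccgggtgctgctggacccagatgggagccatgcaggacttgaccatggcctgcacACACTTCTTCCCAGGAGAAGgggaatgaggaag
Read pairs with several possible positions were not in the deposited unique counts.

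**Figure D1:**
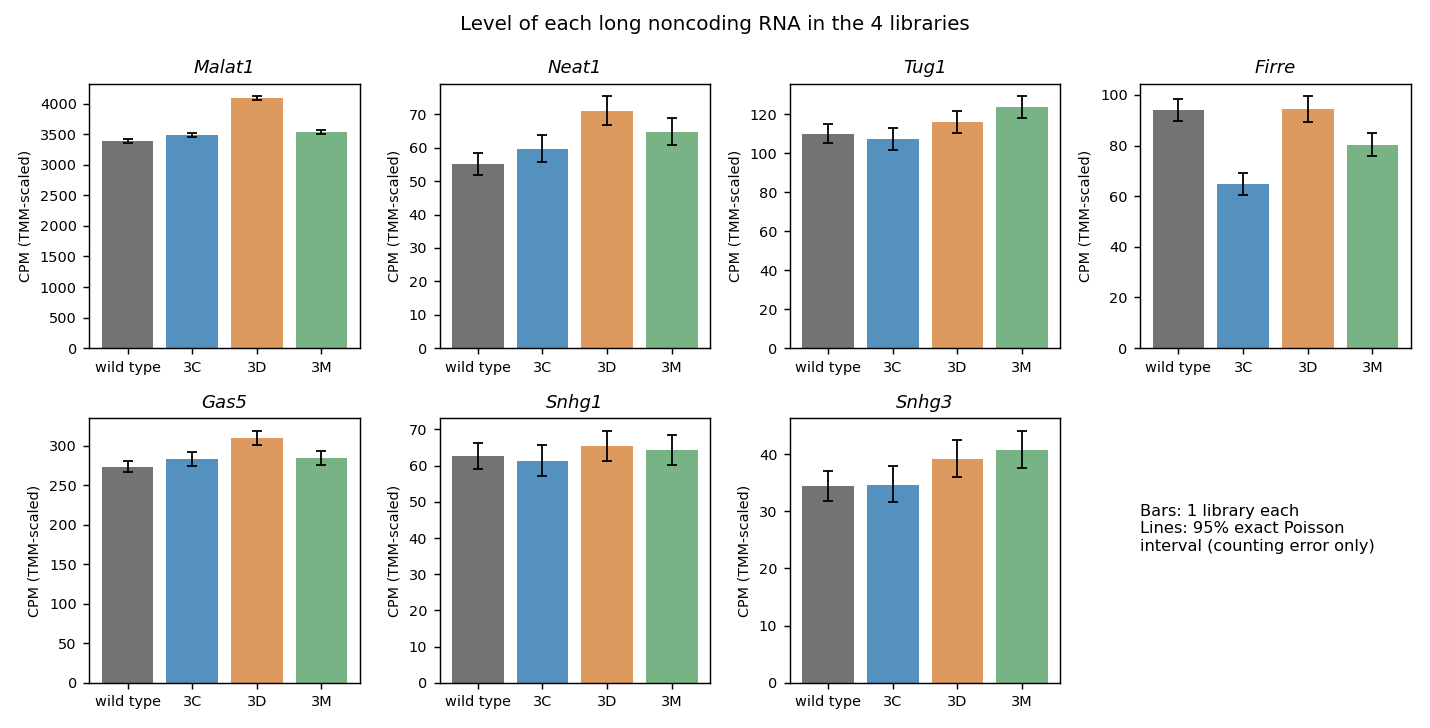
Level of each RNA in CPM (TMM-scaled, linear axis from 0) in wild type and in the clones 3C, 3D and 3M. Each bar is 1 library and each line the exact 95% Poisson interval of its count. Malat1 reaches 4089 CPM in 3D, and Firre is at 64.7 CPM in 3C, below the 94.0 CPM of wild type and the 94.4 CPM of 3D.

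Among the snoRNA hosts, *Gas5* and *Snhg1* had the smallest coefficients of variation between clones of the 7 genes, 5.04% and 3.21%. *Gas5*, a gene known for its high RNA level in growth-arrested cells, had 5223 counts in the wild-type library and 3823, 4506 and 4410 in the clones, or 274, 284, 310 and 285 CPM. All 3 clones were above wild type, by 0.05, 0.18 and 0.06. The clone mean of 293 ± 14.8 CPM (SD, n = 3) corresponded to a log2 fold change of 0.10 (SE 0.08, adjusted p = 0.70).

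*Snhg1*, which hosts snoRNAs of the SNORD22 to SNORD31 group, had 1194 counts in the wild-type library and 827, 950 and 995 in the clones, or 62.6, 61.3, 65.3 and 64.2 CPM. Wild type lay within the range of the clones. Their mean was 63.6 ± 2.04 CPM (SD, n = 3), a spread of 3.21% where counting alone gives 3.29%. Its log2 fold change of 0.02 (SE 0.09, adjusted p = 0.95) was the smallest of the 7. Its interval, before adjustment, ran from -0.19 to 0.24, and differences within it were not excluded.

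*Snhg3*, host of the SNORA73 snoRNAs, had 655 counts in the wild-type library and 467, 570 and 631 in the clones, or 34.3, 34.6, 39.2 and 40.7 CPM. Clone 3C was at the wild-type level and 3D and 3M were 0.19 and 0.25 above it. The clone mean was 38.2 ± 3.16 CPM (SD, n = 3), with a log2 fold change of 0.15 (SE 0.12, adjusted p = 0.70). The ratio of Snhg1 to Snhg3 counts was 1.82 in the wild-type library and 1.77, 1.67 and 1.58 in the clones. Together the 3 hosts had 371 CPM in the wild-type library and 380, 414 and 390 CPM in 3C, 3D and 3M.

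Levels between genes were set side by side per kilobase of RefSeq-matched GENCODE transcript. *Malat1* (6983 bases, 1 exon) had 486 CPM per kilobase in wild type, above all others except possibly *Gas5*. The matched Gas5 transcript retains introns and is 2556 bases long, giving 107 CPM per kilobase, but the 5 transcripts without retained introns (346 to 665 bases) would give 412 to 792. *Snhg1* (605 bases) had 103 and *Snhg3* (437 bases) 78.6 CPM per kilobase. With matched transcripts, these values of the hosts stood well above *Tug1* (16.4 to 23.3, over transcripts of 4720 to 6719 bases) and *Firre* (16.9, 5555 bases), which overlap. With their shortest transcripts without retained introns, *Tug1* would have 288 and *Firre* 192 in wild type. The order therefore depends on the transcripts chosen. For *Neat1* the figure was 18.4 with the short form of 3004 bases and 2.66 with the long form of 20771 bases, and the gene counts do not tell the forms apart. In the clones the values with matched transcripts were 531 ± 47.8 for *Malat1*, 114 ± 5.78 for *Gas5*, 105 ± 3.37 for *Snhg1*, 87.4 ± 7.24 for *Snhg3* and 14.4 ± 2.67 for *Firre* (CPM per kilobase, SD, n = 3). *Tug1* had a clone mean of 17.2 to 24.5 and *Neat1* of 3.14 to 21.7 CPM per kilobase between the longest and the shortest matched transcript. *Firre*, within the range of *Tug1* in wild type, was below it by its mean in the clones.

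Rescue clones and wild type were compared over 13267 genes, and 0 of the 7 reached an adjusted p below 0.01 in edgeR's quasi-likelihood test. *Morc3*, the gene put back in the clones, did not reach it either. Its log2 fold change was 1.87, or 3.65-fold (unadjusted p = 5.2e-05, adjusted p = 0.108 in the same test). With a single wild-type library, a gene that did not pass here or in the lists below was therefore not shown to be unchanged. The unadjusted p was under 0.05 for 0 of the 7 RNAs. DESeq2, limma-voom and edgeR's legacy method also called 0 of them. Across all genes 0.00754% passed the adjusted threshold (1 gene), whereas 10.3% had an unadjusted p under 0.05. The fitted value was above wild type for 6 members and below it for *Firre*, with a median of 0.096 against 0.005 for all genes tested. For 4 members, *Malat1*, *Neat1*, *Gas5* and *Snhg3*, all clones lay above the wild-type library. This was not particular to these RNAs. Of the 9462 genes with a mean of at least 100 counts, 30.6% had all 3 clones above the single wild-type library and 28.1% all 3 below.

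**Figure D2:**
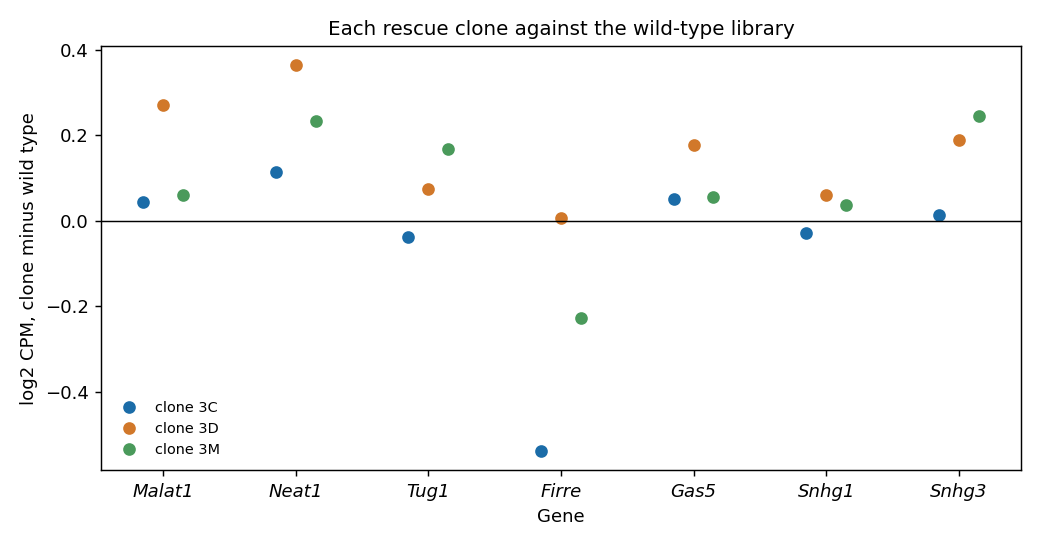
Difference of each rescue clone from the wild-type library, in log2 CPM, for the 7 RNAs (1 point per clone, line at 0 for wild type). In every gene 3C is the lowest of the clones, from -0.54 for Firre to 0.11 for Neat1.

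Clone 3C was the lowest for 7 of 7 members, whereas 3C was the lowest for 33.4% of the 9462 genes. Clone 3D was the highest for *Malat1*, *Neat1*, *Firre*, *Gas5* and *Snhg1* and 3M for *Tug1* and *Snhg3*; over all these genes 3D and 3M were highest for 36.1% and 29.0%. The count of 7 was the same with scaling to total gene counts and with DESeq2 size factors. The gap between 3C and the next clone was outside counting error for *Tug1* (1.08-fold, 95% interval 1.01 to 1.16) and *Firre* (1.24-fold, 1.14 to 1.36), and the interval included 1 for the other 5. Clone 3C also had the fewest read pairs on genes. The part of depth in the low place of 3C was not tested, and the pattern was noticed in these same libraries.

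Other snoRNA host genes were examined next to the 3 members. Of 18 noncoding hosts listed, 11 were in the tables and 10 could be tested, and 0 passed the adjusted p of 0.01. Their median log2 fold change was -0.12, with 1 fitted above wild type and 9 below, while all 3 hosts among the members were fitted above it. Without 3C this median was -0.068. *Snhg18* was the single listed host with an unadjusted p under 0.05, at 25 counts in the wild-type library and 7, 11 and 6 in the clones (log2 fold change -1.24, adjusted p = 0.46). Among the 8 hosts with a mean of at least 100 counts, 4 lay below wild type in all clones and *Dancr*, a noncoding host known for restraining differentiation, lay above it in all (8.28 CPM against 9.79, 9.21 and 11.2 CPM; log2 fold change 0.28, adjusted p = 0.64). *Snhg4* had the largest fitted fall of these 8, at 30.4 CPM in the wild-type library and 23.0, 29.0 and 26.4 CPM in the clones (log2 fold change -0.21, adjusted p = 0.65). Clone 3C was the lowest clone for 7 of these 8 hosts as well.

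**Figure D3:**
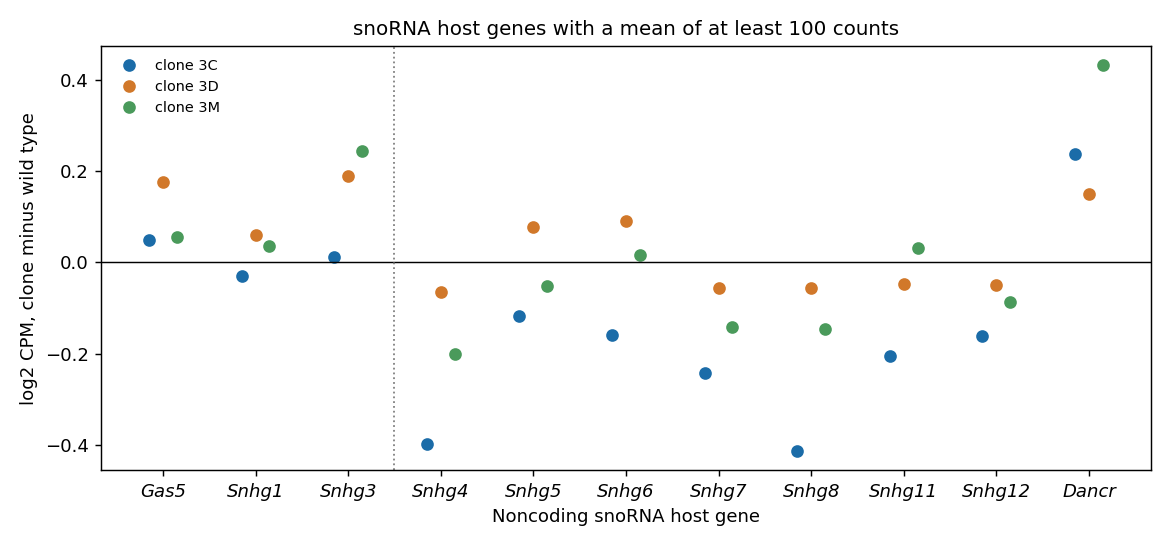
Difference of each rescue clone from wild type, in log2 CPM, for snoRNA host genes with a mean of at least 100 counts: the 3 members left of the dotted line and 8 other hosts right of it. Of the members only Snhg1 in 3C lies below 0, Dancr lies above 0 in all clones, and clone 3C is the lowest in all but Dancr.

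The snoRNAs inside the hosts were barely visible in these counts. RefSeq places 18 snoRNA genes within the members, 8 in *Gas5*, 8 in *Snhg1* and 2 in *Snhg3*, and only 2 of them were in the tables. *Snord22*, inside *Snhg1*, had 197 counts in the wild-type library and 121, 125 and 124 in the clones (log2 fold change -0.28, adjusted p = 0.60). *Snord47*, inside *Gas5*, had 85 counts in the wild-type library and 70, 63 and 75 in the clones (log2 fold change 0.10, adjusted p = 0.91). Reads of a snoRNA and of unspliced host RNA cannot be told apart at these positions.

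The proteins that work with these RNAs gave no calls. Here and in the lists of hosts, other noncoding RNAs and neighbours, DESeq2 and edgeR with each clone left out also called 0 genes. Of 15 tested snoRNP proteins and assembly factors 0 passed, with a median of -0.05, and 1, *Nufip1*, a snoRNP assembly factor, had an unadjusted p of 0.0061 (96.2 CPM in the wild-type library and 121, 124 and 117 CPM in the clones; log2 fold change 0.32, adjusted p = 0.28). *Nhp2l1*, which encodes a core protein of box C/D snoRNPs, had a log2 fold change of 0.18 (adjusted p = 0.56). Of 10 genes of nonsense-mediated decay, 0 passed and 0 were under 0.05 without adjustment. Their median was 0.02, and the 2 largest values were those of the decay factors *Smg6* (-0.11, adjusted p = 0.73) and *Smg5* (-0.09, adjusted p = 0.72).

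Among 15 genes of paraspeckle proteins, the partners of Neat1, 0 passed and the median was 0.02. *Pspc1*, a core paraspeckle protein, had 97.4 CPM in the wild-type library and 117, 109 and 123 CPM in the clones (log2 fold change 0.25, unadjusted p = 0.035, adjusted p = 0.44), and *Hnrnpk* had a log2 fold change of 0.19 (adjusted p = 0.49). *Pspc1* and *Nufip1* lie on chromosome 14, whose 446 genes had medians 0.34 to 0.35 above wild type in all clones, and *Hnrnpk* lies on chromosome 13, whose 439 genes had medians of 0.50 in 3C, 0.02 in 3D and 0.50 in 3M. The part of these shifts in the 3 values was not tested. The 11 genes of nuclear speckle and SR proteins, the partners of Malat1, had a median of -0.02 with 0 passing and 0 under an unadjusted p of 0.05, and their largest values were *Srrm1* at 0.11 (adjusted p = 0.60) and *Srsf7* at -0.08 (adjusted p = 0.72). For the partners of Firre, *Ctcf* was at 0.06 (adjusted p = 0.80) and *Hnrnpu* at -0.001 (adjusted p = 0.997).

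Of 21 other long noncoding RNAs, 20 were in the tables, 14 were tested and 0 passed, with a median of 0.11 (0.067 without 3C and 0.17 without 3M). *Mir17hg*, the precursor of the miR-17-92 microRNAs and also on chromosome 14, had 559 counts in the wild-type library and 513, 489 and 634 in the clones (log2 fold change 0.36, unadjusted p = 0.044, adjusted p = 0.47). *Tsix*, the antisense partner of *Xist*, had 17.2 CPM in the wild-type library and 20.6, 20.4 and 20.3 CPM in the clones (log2 fold change 0.25, adjusted p = 0.54).

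Genes near the members were read for comparison, since the first tabulated RefSeq promoter start of *Morc2a* lies 623 bases from that of *Tug1*, on the opposite strand, and *Zbtb37* overlaps the start of *Gas5* on the other strand. The 7 neighbours reported were tested, 0 passed and 2 had an unadjusted p under 0.05, with a median log2 fold change of -0.14. *Morc2a*, a paralog of *Morc3*, had 3653 counts in the wild-type library and 2227, 2502 and 2522 in the clones, or 192, 165, 172 and 163 CPM. All clones lay below wild type, with a log2 fold change of -0.20 (SE 0.07, unadjusted p = 0.029, adjusted p = 0.43), while *Tug1* was at 0.07. *Hs6st2*, the gene of a heparan sulfate sulfotransferase 751 kb from *Firre*, had 67 counts in the wild-type library and 23, 19 and 35 in the clones (log2 fold change -0.99, unadjusted p = 0.028, adjusted p = 0.43).

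Near *Malat1* and *Neat1*, *Frmd8* had a log2 fold change of -0.21 (adjusted p = 0.52). The neighbours of *Snhg1* and *Snhg3* were *Slc3a2* at -0.14 (adjusted p = 0.57), *Rcc1* at -0.11 (adjusted p = 0.65) and *Trnau1ap* at -0.05 (adjusted p = 0.94). *Zbtb37* was at 0.19 (adjusted p = 0.71).

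**Figure D4:**
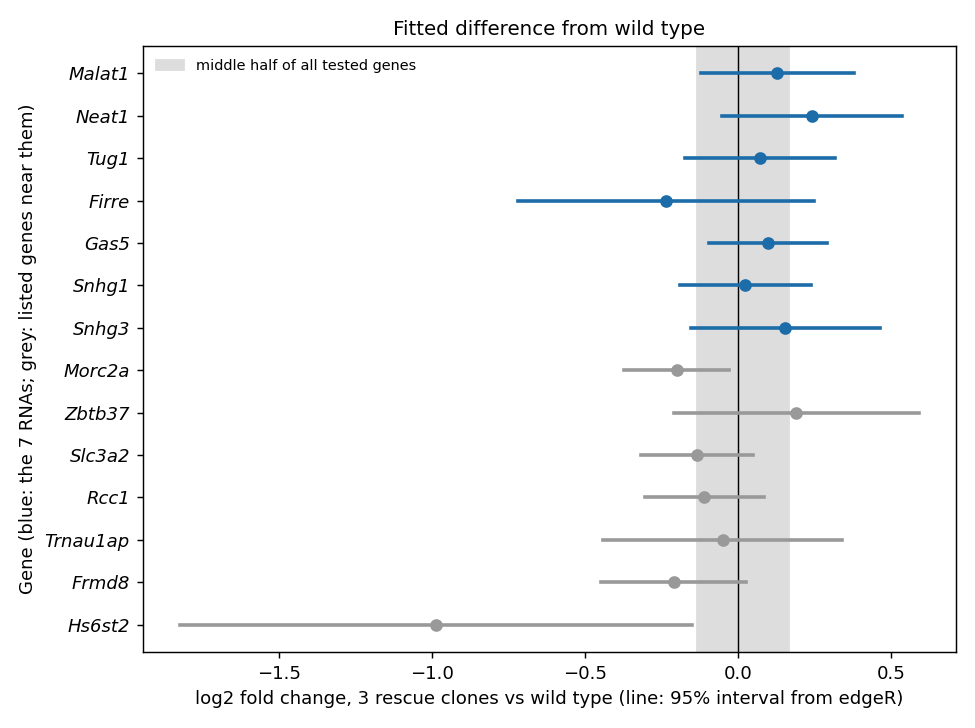
Fitted log2 fold change of the rescue clones against wild type with its 95% interval from edgeR, for the 7 RNAs (blue) and 7 listed genes near them (grey), with the interquartile range of all tested genes shaded. The intervals of all 7 RNAs include 0, and those of Morc2a and Hs6st2 lie below it before adjustment.

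Reads on the strand opposite to each member were few. The forward-strand column held 22 to 45 counts for *Malat1* and at most 8 for *Neat1*, 5 for *Tug1*, 5 for *Gas5* and 1 for *Snhg3*, and 0 for *Snhg1* in all 4 libraries. *Firre* had 7 counts in wild type (0.389% of its reads on both strands) and 10, 9 and 10 in the clones (1.13%, 0.651% and 0.797%). *Neat1* had 4 counts in wild type (0.379%), and the clones had 3, 3 and 8 (0.371%, 0.290% and 0.791%). The shares of *Firre* in 3C and 3M and of *Neat1* in 3M, at 8 to 10 counts each, were above the upper quartile over genes. Over the 9462 genes the median share lay between 0.123% and 0.158% and the upper quartile between 0.663% and 0.699%.

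The genes whose 3 clone differences from wild type lay nearest to those of each member were sought among the 9461 other genes with a mean of at least 100 counts, by Euclidean distance in log2 CPM over the 3 clones. For *Firre* these were *Mpv17* (distance 0.039) and *Neb* (0.058), and only 11 genes lay within 0.1. Those nearest to *Malat1* were *Ccdc34* (0.022) and *Ankmy2* (0.033), and to *Neat1* *Brwd3* (0.025) and *Fam86* (0.035), with 90 and 47 genes within 0.1. *Med7* (0.015) and *Gtf2i* (0.018) were nearest to *Tug1*. For the hosts they were *Rabgef1* and *Ankrd16* for *Gas5* (0.015 and 0.018), *Rpl14* and *Nr5a2* for *Snhg1* (both 0.013), and *Ldoc1l* and *Rsbn1l* for *Snhg3* (0.024 and 0.028). Within 0.1 lay 740 genes for *Snhg1*, 343 for *Gas5*, 180 for *Tug1* and 79 for *Snhg3*, so many genes shared the pattern of *Snhg1* or *Gas5*.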

How the data were processed

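Per the labels, total RNA was extracted with Trizol and a Zymo column kit, depleted of rRNA and made into directional libraries. The authors aligned the read pairs to mm10 with STAR and deposited unnormalized gene counts of read pairs with a unique position, in an unstranded column and 1 column per strand. Their gene annotation is, in the sources used here, not given. The reverse-strand column (column 4) was used, with column 3 for the opposite strand, which held 1.26% to 1.31% as many counts. Pairs outside annotated genes (23.6% to 24.7% of all pairs), multimapping (7.85% to 8.21%), ambiguous and unmapped pairs name no gene and stayed out of library sizes and tests.

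The main test was the non-legacy quasi-likelihood test of edgeR 4.0.16 (R 4.3.3; TMM scaling, filterByExpr filter), rescue against wild type, with Benjamini-Hochberg adjusted p of 0.01 over 13267 genes. The standard error is the log2 fold change over the square root of F. Differences in log2 CPM used a prior count of 2. The edgeR, legacy edgeR, DESeq2 and limma-voom fits were tested on simulated counts with known changes, and the other steps were not. Counting intervals cover counting error only. Nothing in the labels says that clones were cultured or prepared at separate times, so p-values measure the spread between these samples.

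The 7 genes and all gene lists were chosen with earlier results of these data known. Text names the 7 genes, their neighbours, the 2 genes with the largest log2 fold change in size per list among those with a mean of at least 100 counts, and the 2 nearest genes in pattern. *Snhg18*, *Snord47*, the clone order, the host counts, the ratios within libraries, the transcript lengths, the repeats and the promoter letters were chosen or defined after values were seen. Sequences and positions came from RefSeq and GENCODE on GRCm38. RefSeq promoters were found for 6 of the 7 genes. Counts of genes that overlap on 1 strand are uncertain, and GENCODE places a second gene on *Snhg3* that shares 68.0% of its 50-base windows. A further listed gene is not reported here. Alternatives were the unstranded column, DESeq2 1.42.0 size factors or test, limma-voom (limma 3.58.1), edgeR's legacy method, other scalings and filters, and each clone left out.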

Additional observations from a re-analysis of the deposited data

Results flagged for a closer look

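Outside the column used for the comparison, *Morc3* had 7 counts in the forward-strand column in the wild-type library, and clones 3C, 3D and 3M had 1963, 2001 and 2266, a signal on the opposite strand well above the wild-type library. Among the 7 long noncoding RNAs the same column held at most 45 counts in any library.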

How the results depend on the processing

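Of 223 values recomputed, 214 stayed on the same side of the test's threshold with the same sign, or within the clones' spread. None of the 7 genes was called under any of the 13 alternatives run on them, and the sign of the fitted change was kept in all 13 for every gene except *Snhg1*, which was at -0.0062 with total gene counts. The log2 fold change ranged from 0.05 to 0.17 for *Malat1*, 0.17 to 0.30 for *Neat1*, 0.02 to 0.12 for *Tug1*, -0.37 to -0.11 for *Firre*, 0.05 to 0.12 for *Gas5* and 0.10 to 0.22 for *Snhg3*. The largest of these in size was that of *Firre* without 3D, the clone at its wild-type level.

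The number of genes called over the whole table was 1, and became 0 with at least 10 counts in every library (1285 at an unadjusted p under 0.05), 0 with limma-voom (1439) and 0 with edgeR's legacy method (1295), 59 with DESeq2 and 64 with DESeq2 at an alpha of 0.01, a version added after seeing the data. Leaving out each clone gave 0 to 420, with 420 without 3D (332 of them higher in rescue), 0 without 3M (751 at an unadjusted p under 0.05) and 1 without 3C. The median of the snoRNP proteins was -0.022 without 3D. The causes were not tested. No paired analysis was possible because the single wild-type library shares at most 1 replicate number with the clones. The wild-type library could not be left out. At 467 to 1052 counts, *Snhg3* and *Neat1* carry a counting error of 4.24% and 3.25%, and changes within the intervals given could not be detected.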
